A study of Rattus norvegicus with 4 samples.

Results

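Alcohol and aldehyde dehydrogenases, aldo-keto reductases of the AKR1 group, carboxylesterases and flavin-containing monooxygenases were examined in rat liver RNA. These are the main enzymes outside the cytochrome P450 superfamily that oxidise, reduce or hydrolyse alcohols, carbonyls, esters and amines. The members were all rows of the deposited gene table whose symbol begins with Adh, Aldh, Ces or Fmo and a digit, or with Akr1. The rule used names only and no measured value, though it was chosen with earlier results of these data known. It found 59 of 32545 listed genes, of which 4 were alcohol dehydrogenases, 19 aldehyde dehydrogenases, 16 aldo-keto reductases, 12 carboxylesterase rows and 8 flavin monooxygenases.

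The series holds 4 liver libraries in 2 groups. Animals of the control group were kept active by force (forced activity 1 and 2), and animals of the other group were kept active and also chronically restricted in sleep (sleep restriction 1 and 2), so that both groups shared the forced activity. Strain, sex, age, duration and clock time are not given in the sources used here, and nothing says that the libraries of a group come from separate animals. The p-values therefore measure only the spread between these libraries, which may be technical. The comparison asked which of these enzymes differ in the liver when sleep restriction is added to forced activity.

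The deposited values are estimated counts with 1 decimal. Their totals lay between 508202.6 and 520275.6 per library, and the members took 1.22% and 1.17% of them in the forced activity libraries and 1.28% and 1.25% in the others. The near-equal totals do not show the depth behind each column. From 0.1 to 1, the most frequent value was 0.1 in both replicate 1 libraries, 0.6 in forced activity 2 and 1 in sleep restriction 2, so the columns have unequal steps. The number of reads behind each is unknown. Levels below are normalised CPM (counts scaled to a common library size with TMM factors), given in the order forced activity 1, forced activity 2, sleep restriction 1, sleep restriction 2. Transcript lengths were not used, so levels are compared between libraries and not between genes. In bulk tissue, fewer cells of a type and less RNA per cell cannot be told apart.

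All 10 hepatocyte markers passed the filter on low counts, and they summed to between 197080 and 208610 CPM. Alb alone took 119100, 131300, 128100 and 138000 CPM, so the sum says little of the other markers. Both sleep restriction libraries lay above both forced activity libraries for Ttpa (179, 93.2, 247 and 260 CPM). They lay below them for Apoa1 (1781, 2065, 1438 and 1160 CPM), Asgr1, Ttr and Ambp. The groups overlapped for the other 5 markers, and 0 of the 10 passed the test between the groups. The 11 listed markers of sinusoidal endothelial cells summed to 251, 701, 633 and 354 CPM, high in 1 library of each group. The 7 listed red cell markers summed to 835, 1702, 1121 and 649 CPM, and the 12 macrophage markers to 687, 905, 1075 and 758 CPM. Bile duct markers summed to between 23.3 and 35.4 CPM, with Cldn7 at 0, and lymphocyte markers to between 22.3 and 28.4 CPM.

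As background, alcohol dehydrogenases and aldehyde dehydrogenases act in sequence, turning an alcohol into an aldehyde and then a carboxylic acid with NAD as the electron acceptor. Aldo-keto reductases run the other way, using NADPH to reduce carbonyl groups of sugars, aldehydes and steroids. Carboxylesterases cut ester and amide bonds of drugs and lipids in the lumen of the endoplasmic reticulum, and flavin monooxygenases add oxygen to nitrogen or sulphur atoms. The liver is rich in all of them.

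Of the 59 members, 28 passed the filter on low counts and 0 of these passed the test between the groups. Of the other 31, 8 were at 0 in every library. Of all 4986 genes tested, 0.0201% (1 gene, no member) were called at an adjusted p under 0.05 in edgeR's quasi-likelihood test. The members' adjusted p lay between 0.978 and 1.0, and 0 of 28 had an unadjusted p under 0.05, a level reached by 4.25% of all genes tested. DESeq2 and limma-voom also called 0 members. Log2 changes ran from -0.46 for Ces2e to 0.45 for Fmo5, with a median of 0.029, beside a median of 0.0039 over all genes tested. They were positive for 16 members (57.1%) and negative for 12, and 52.2% of all genes tested had a positive value. The 95% interval of the change lay within 2-fold in either direction for 26 of the 28 members, the exceptions being Akr1c1 and Ces2e, and for 77.9% of all genes tested. The libraries of the groups did not overlap for 10 members (35.7%), 7 higher and 3 lower under sleep restriction. Over all genes tested 32.4% did not overlap, 16.8% higher and 15.5% lower, so the members' share lay near the background.

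**Figure D1:**
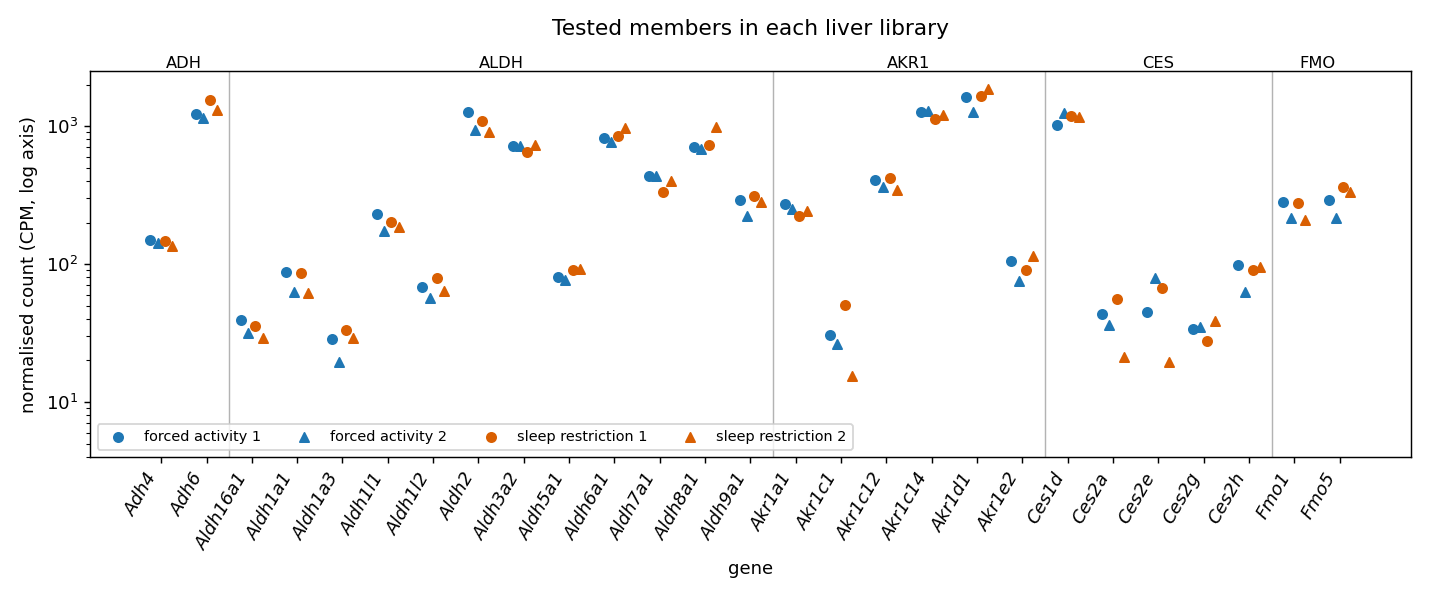
Normalised count (CPM, log axis) of 27 tested members in each of the 4 libraries, grouped by family, with circles for replicate 1 and triangles for replicate 2, blue for forced activity and orange for sleep restriction. Most genes keep their level across the 4 libraries, while Akr1c1, Ces2a and Ces2e spread widely within the sleep restriction group.

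The spread over the 4 libraries was narrow for most members. The range from the lowest to the highest library had a median of 0.44 on the log2 scale over the tested members, against 0.53 over all genes tested. It was smallest for Adh4, at 0.13, and largest for Ces2e, at 1.82. Both this range and the interval above depend on the number of counts, and members were not matched to other genes by level.

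The alcohol dehydrogenase family is represented by 4 listed genes, which lie in a cluster on chromosome 2. Adh6, the entry with the most counts, measured 1227, 1151, 1536 and 1312 CPM. Both sleep restriction libraries lay above both forced activity libraries, with means of 1424 ± 159 against 1189 ± 54.2 CPM (SD, n = 2 each). The log2 change was 0.26 (SE 0.19, 95% interval -0.16 to 0.68, edgeR adjusted p 0.978). It was 0.32 between the replicate 1 libraries and 0.19 between the replicate 2 libraries. That both are positive follows from the groups not overlapping and is no separate result.

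The Adh6 entry (ENSRNOG00000012436.6) runs from 243550627 to 243687857 on chromosome 2 of rn6, a span of 137.2 kb that encloses Adh6a, listed from 243576880 to 243599602. In RefSeq's gene order for the assembly GRCr8, Adh1c, the classical ethanol-oxidising enzyme of liver, lies between Adh7 and Adh6a. The listed Adh6 entry begins between those same neighbours. Adh1c was not analysed here under its own symbol, and which transcripts gave the counts of the Adh6 entry was not tested. Adh6a itself had 0.1 counts in forced activity 1 and 0 in the other libraries.

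Adh4, a class II enzyme that also acts on retinol and longer alcohols, had the narrowest range of the tested members, at 149.6, 142.4, 146.3 and 136.0 CPM. Its log2 change was -0.044 (SE 0.20, 95% interval -0.49 to 0.40), and the groups overlapped. Adh7, the class IV enzyme best known from the stomach, lay under the filter with 8.1, 11.7, 9 and 10 counts. Adh5, the formaldehyde-clearing class III enzyme, was not analysed here.

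Among the aldehyde dehydrogenases, 12 of 19 listed genes were tested, 6 with a positive and 6 with a negative change. The family median was 0.086, with extremes of -0.25 for Aldh7a1 and 0.36 for Aldh1a3. Aldh2, the mitochondrial enzyme that clears acetaldehyde, measured 1261, 944, 1083 and 905 CPM. Here the replicate 1 library was the higher of its group in both groups, and the groups overlapped, at 1103 ± 224 and 994 ± 126 CPM. The log2 change was -0.15 (SE 0.21, 95% interval -0.61 to 0.32).

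Enzymes that sit in amino acid breakdown did not share a direction. Aldh6a1, the methylmalonate semialdehyde dehydrogenase of valine breakdown, measured 819, 763, 843 and 972 CPM (log2 change 0.20, SE 0.19). Aldh8a1, which acts on an aldehyde intermediate of tryptophan breakdown and on retinal, measured 706, 682, 736 and 985 CPM (log2 change 0.31, SE 0.21). Both had their sleep restriction libraries above their forced activity libraries, and in both the highest library was sleep restriction 2. For Aldh8a1 the log2 difference was 0.058 between the replicate 1 libraries and 0.53 between the replicate 2 libraries, and the change was 0.079 without sleep restriction 2.

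Aldh7a1, the lysine-pathway aminoadipate semialdehyde dehydrogenase, ran opposite, at 435.4, 434.9, 330.6 and 400.3 CPM. The forced activity libraries were nearly equal (435.1 ± 0.337 CPM) and both sleep restriction libraries were lower (365.4 ± 49.3 CPM), for a log2 change of -0.25 (SE 0.20, 95% interval -0.68 to 0.19, edgeR adjusted p 0.978). Without sleep restriction 1 it was -0.13, and without sleep restriction 2 it was -0.40. Aldh5a1, the succinate semialdehyde dehydrogenase of GABA breakdown, had values of 80.2, 77.1, 90.5 and 91.3 CPM (log2 change 0.19, SE 0.21), higher in both sleep restriction libraries.

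Fatty aldehyde and carnitine enzymes had overlapping groups. Aldh3a2, which oxidises long-chain fatty aldehydes, measured 720, 718, 654 and 731 CPM (log2 change -0.053, SE 0.19), a range of 0.16 on the log2 scale. Aldh9a1, an enzyme of carnitine synthesis, measured 293, 224, 309 and 279.8 CPM (log2 change 0.19, SE 0.21), and its lowest library was forced activity 2. Without that library the change was 0.013.

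Aldh1l1, a cytosolic folate enzyme that oxidises formyltetrahydrofolate, measured 231.8, 173.5, 203.0 and 184.6 CPM (log2 change -0.058, SE 0.21). Its mitochondrial relative Aldh1l2 measured 67.6, 57.1, 79.1 and 64.1 CPM (log2 change 0.20, SE 0.23). The groups overlapped in both. Of the retinal dehydrogenases, Aldh1a1 measured 87.7, 62.8, 85.5 and 62.2 CPM, so that its replicate 1 libraries were high and its replicate 2 libraries low in both groups, for a log2 change of -0.019 (SE 0.25). Aldh1a3, at 28.6, 19.5, 33.1 and 29.1 CPM, had the largest positive value of the family (0.36, SE 0.28, 95% interval -0.27 to 0.99), on 10.5 to 17.1 counts per library. It was 0.11 without forced activity 2 and 0.64 without forced activity 1. Aldh16a1 had a log2 change of -0.11 (SE 0.26), with overlapping groups.

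Under the filter, Aldh1b1, a mitochondrial aldehyde dehydrogenase related to Aldh2, measured 8.4, 9.7, 5.4 and 2 counts, lower in both sleep restriction libraries. With each column divided by its most frequent low value, as an estimate of the reads behind it and an alternative added after the data were seen, its log2 change was -0.88 (SE 0.36) with an edgeR adjusted p of 0.9999. That alternative called 0.0411% of 9729 genes. The remaining aldehyde dehydrogenases (Aldh1a2, Aldh1a7, Aldh3a1 and Aldh3b1) held at most 7.8 counts over all libraries. Aldh18a1, the proline synthesis enzyme, and Aldh3b2 were listed at 0 throughout.

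Of 16 listed aldo-keto reductases 6 were tested, 4 with a positive and 2 with a negative change and a median of 0.092. Akr1d1, the 5-beta-reductase of bile acid and steroid hormone metabolism, measured 1620, 1275, 1662 and 1846 CPM. Both sleep restriction libraries were above both forced activity libraries (1754 ± 130.2 against 1448 ± 244 CPM), and the log2 change was 0.28 (SE 0.20, 95% interval -0.16 to 0.72, edgeR adjusted p 0.978). The replicate 1 libraries differed by 0.037 and the replicate 2 libraries by 0.53.

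Akr1a1, the aldehyde reductase that in rodents supplies the vitamin C pathway, measured 271, 251, 222 and 243 CPM. It was lower in both sleep restriction libraries, with a log2 change of -0.16 (SE 0.19, 95% interval -0.59 to 0.27). Akr1b1, the aldose reductase of the polyol pathway, lay under the filter at 5.1, 5.1, 8 and 0 counts. Akr1b7 and Akr1b1-ps2 were at 0 in all libraries, and Akr1b8 had 0.9 counts in all.

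The other aldo-keto reductases belong to a cluster on chromosome 17 of rn6 that begins with Akr1e2 at 69365453 and ends with the entry Akr1cl at 69862110. Akr1c14, the rat 3-alpha-hydroxysteroid dehydrogenase, was the member of the cluster with the most counts, at 1258, 1279, 1134 and 1212 CPM. It was lower in both sleep restriction libraries by a small margin (log2 change -0.11, SE 0.18, 95% interval -0.52 to 0.30). Akr1c12 measured 407, 359.8, 422 and 346 CPM, for a log2 change of 0.0045 (SE 0.20, 95% interval -0.44 to 0.45). Akr1e2, known to reduce 1,5-anhydrofructose, measured 105.5, 75.8, 90.5 and 115 CPM (log2 change 0.18, SE 0.24).

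Other genes of the same cluster were high in sleep restriction 1 alone. Akr1c2, the second gene of the cluster, measured 5.9, 2, 48.7 and 1 counts, which are 11.9, 3.71, 94.2 and 1.94 CPM. Its neighbour Akr1c1, listed in RefSeq with the synonym Hsd17b5, had 15.1, 14.2, 25.9 and 8 counts. Akr1c13, the fifth gene, had 8.8, 8.6, 25.7 and 6 counts. In each of these 3 genes the lowest and the highest library were both in the sleep restriction group, so the groups overlapped.

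On the scale of log2 (CPM + 2), sleep restriction 1 exceeded the mean of the other libraries by 3.61 for Akr1c2, 1.59 for Akr1c13, 0.99 for Akr1c1 and 1.02 for Akr1cl, which RefSeq lists as Akr1c15 and which had 2.2, 3.9, 7.2 and 3 counts. For Akr1c12, Akr1c14, Akr1c19 and Akr1c3 the same value was 0.19, -0.14, 0.27 and -0.21, and for Akr1e2 it was -0.12. In the order of the cluster, Akr1c19, Akr1c12, Akr1c3 and Akr1c14 lie between Akr1c13 and Akr1cl. Akr1cl held at most 7.2 counts in any library, so whether the high genes are contiguous cannot be settled from these values. Akr1c19 had 3, 4.7, 4.5 and 3 counts and Akr1c3 had 5.2, 2.9, 3.1 and 3, while Akr1c12l1, between Akr1c1 and Akr1c13, held 2 counts over all libraries. These genes were singled out after their values were seen. Akr1c genes are close copies, and how the authors' counting divided reads among them is uncertain.

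Only Akr1c1 of these passed the filter, with a log2 change of 0.21 (SE 0.42, 95% interval -0.74 to 1.15, edgeR adjusted p 0.991). It was 0.65 between the replicate 1 libraries and -0.64 between the replicate 2 libraries, and the change became -0.73 without sleep restriction 1. With the columns divided as above, Akr1c2 had a log2 change of 2.57 (SE 1.0), Akr1c13 1.10 (SE 0.41) and Akr1cl 1.11 (SE 0.41), each with an edgeR adjusted p of 0.9999. Macrophage markers had their highest sum in sleep restriction 1 (687, 905, 1075 and 758 CPM), and endothelial markers summed to 251, 701, 633 and 354 CPM. Markers of periportal hepatocytes summed to 10329, 9995.2, 13003 and 9853 CPM. Those of pericentral hepatocytes summed to 8839, 7893, 9576 and 7515 CPM, and both sums were highest in sleep restriction 1. Of the tested pericentral markers, Cyp1a2 and Cyp2e1 were highest there, and Glul, Oat and Gulo were highest in forced activity 1. Of the tested periportal markers, Ass1, Cps1, Pck1, Sds and an entry of G6pc, the glucose-6-phosphatase (ENSRNOG00000051171.2), were highest in sleep restriction 1. Arg1, Hsd17b13 and the other G6pc entry were highest in sleep restriction 2, and Hal, Gls2 and Cyp2f4 in forced activity 2. Picked out with its values known, the first G6pc entry stood at 160.0, 222, 766 and 107 CPM. The other G6pc entry stood at 30.4, 27.8, 33.4 and 52.5 CPM. Cyp1a2, a drug-oxidising P450 picked out in the same way, stood at 1253, 1322, 2168 and 1319 CPM. The part of any of these in the Akr1c values was not tested.

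**Figure D2:**
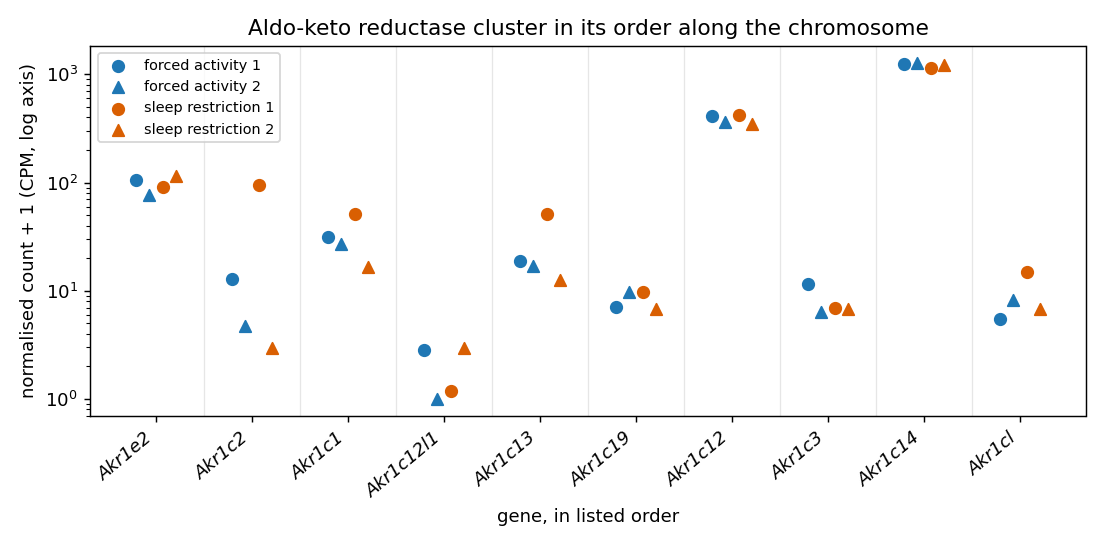
Normalised count + 1 (CPM, log axis) of the 10 genes of the chromosome 17 cluster, in their order along the chromosome, in each of the 4 libraries. Akr1c2, Akr1c1 and Akr1c13 stand highest in sleep restriction 1 (94.2, 50.1 and 49.7 CPM), while Akr1c12 lies between 346 and 422 CPM and Akr1c14 between 1134 and 1279 CPM.

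The promoters of this cluster are shown because Akr1c13 and Akr1c12 have nearly the same sequence before their starts, while sleep restriction 1 exceeded the other libraries by 1.59 for Akr1c13 and by 0.19 for Akr1c12 on the log2 scale above. Of the 58 member symbols, 44 matched a promoter in RefSeq (GRCr8), each with 250 bases before and 50 bases from the gene's start. RefSeq lists each of these 2 symbols as a synonym of the other gene, and the promoters were matched by symbol alone. Akr1c13 lies between Akr1c12l1 and Akr1c19 both in the listed rn6 cluster and in RefSeq's order. In a global alignment 269 of 300 bases were identical (89.7%), against 55.7% to 58.0% for the other pairs among Akr1c2, Akr1c12, Akr1c13 and Akr1c14. Capitals mark the bases that differ between Akr1c13 (chr17:70894386-70894685, plus strand) and Akr1c12 (chr17:70971363-70971662, minus strand), with the run at the 5′ end of Akr1c13 and that at the 3′ end of Akr1c12 having no counterpart in the other window. Akr1c2 (chr17:70717831-70718130, minus strand) is given whole in lower case. All are 5′ to 3′.
Akr1c13: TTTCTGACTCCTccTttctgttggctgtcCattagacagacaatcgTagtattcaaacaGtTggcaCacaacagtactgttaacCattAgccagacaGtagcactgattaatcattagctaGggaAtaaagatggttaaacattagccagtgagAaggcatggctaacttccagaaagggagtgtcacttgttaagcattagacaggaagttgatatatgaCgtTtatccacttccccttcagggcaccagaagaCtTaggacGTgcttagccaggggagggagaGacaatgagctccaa
Akr1c12: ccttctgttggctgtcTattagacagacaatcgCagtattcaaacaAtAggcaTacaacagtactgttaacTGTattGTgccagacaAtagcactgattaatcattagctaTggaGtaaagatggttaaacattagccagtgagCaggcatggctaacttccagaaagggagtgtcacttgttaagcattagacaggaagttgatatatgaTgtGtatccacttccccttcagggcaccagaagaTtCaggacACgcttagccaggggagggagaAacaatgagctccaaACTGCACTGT
Akr1c2: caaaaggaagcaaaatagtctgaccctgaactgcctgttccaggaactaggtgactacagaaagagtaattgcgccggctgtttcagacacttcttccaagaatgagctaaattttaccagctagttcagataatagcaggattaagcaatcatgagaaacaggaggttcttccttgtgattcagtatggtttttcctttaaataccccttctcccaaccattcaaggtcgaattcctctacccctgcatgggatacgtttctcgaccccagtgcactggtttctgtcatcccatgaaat

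These windows were searched on both strands for TGACNNNGC, the core of the antioxidant response element, for AGGTCA, a nuclear receptor motif, for TATAAA and for CCAAT. No match to any of the 4 was found in Akr1c2, Akr1c12 or Akr1c13, and Akr1c14 had CCAAT alone. TGACNNNGC occurred in 12.1%, AGGTCA in 16.2%, TATAAA in 14.2% and CCAAT in 37.5% of all 33469 promoters of that length. Of the 11 aldo-keto reductase promoters, 0 held TGACNNNGC, 1 held AGGTCA, 2 held TATAAA and 6 held CCAAT. The absence says only that these letters are not in these windows.

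Carboxylesterases had 5 of 12 rows tested, 3 with a positive and 2 with a negative change, and a median log2 change of 0.0018. For all 5 the change between the replicate 1 libraries and that between the replicate 2 libraries had opposite signs. Overlap of the groups follows from such signs and is no separate result. Of all genes tested, 43.9% had opposite signs and 67.6% overlapped. Ces1d, a lipid and drug hydrolase, measured 1015, 1236, 1175 and 1160 CPM, with means of 1125 ± 156 and 1167 ± 10.5 CPM and a log2 change of 0.054 (SE 0.19, 95% interval -0.37 to 0.48).

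The Ces1d entry (ENSRNOG00000015519.6) runs from 15033108 to 15239821 on chromosome 19, 206.7 kb, and overlaps the entry LOC501233, listed from 15081158 to 15335002. LOC501233, which is no member, held 2424, 1949.6, 1848.6 and 1994 counts and had a log2 change of -0.19 (SE 0.21, edgeR adjusted p 0.978). Among Ces1 genes on chromosome 19, RefSeq's order for GRCr8 is Ces1f, Ces1e, Ces1d, Ces1c, Ces1a and Ces1dl1. Whether genes of other names lie between them was not examined. Of these, Ces1f, Ces1e, Ces1c and Ces1dl1 were not analysed here under their own symbols. Which transcripts gave the counts of the overlapping entries was not tested. Ces1a and Ces5a were at 0 in every library.

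Ces2 enzymes cleave esters with large alcohol parts. Ces2e measured 44.8, 78.6, 67.3 and 19.4 CPM, on 22.1, 42.4, 34.8 and 10 counts, so that sleep restriction 2 was lowest and forced activity 2 highest. The log2 change was -0.46 (SE 0.48, 95% interval -1.58 to 0.66, edgeR adjusted p 0.978), made up of 0.55 between the replicate 1 libraries and -1.82 between the replicate 2 libraries. It became 0.12 without sleep restriction 2 and ran from -1.50 to 0.12 over the fits with 1 library left out. Forced activity 2 and sleep restriction 1, where Ces2e was high, also had the higher sums of red cell markers (835, 1702, 1121 and 649 CPM), endothelial markers (251, 701, 633 and 354 CPM) and macrophage markers (687, 905, 1075 and 758 CPM). The order of the libraries was that of Ces2e for the red cell sum and not for the others. The part of these cells in its values was not tested.

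Ces2a (ENSRNOG00000011330.7) was also lowest in sleep restriction 2, at 43.1, 35.96, 55.7 and 21.4 CPM. Its log2 change was 0.0018 (SE 0.35, 95% interval -0.77 to 0.78) and became -0.76 without sleep restriction 1. Ces2i, under the filter, had 4.9, 8.6, 6.1 and 2 counts and was lowest in sleep restriction 2. That library, almost all whole counts, had 10952 genes above 0. Forced activity 1, forced activity 2 and sleep restriction 1 had 14008, 11943 and 14105. The share of all genes lowest in sleep restriction 2 was not taken, so no shared drop of these esterases can be read from this. Ces2h measured 97.8, 62.3, 90.5 and 95.2 CPM (log2 change 0.22, SE 0.25), with forced activity 2 lowest, and Ces2g measured 33.6, 34.9, 27.8 and 38.9 CPM (log2 change -0.070, SE 0.27). Ces2j measured 6.7, 6.8, 7.5 and 6 counts. A second row of the symbol Ces2a, Ces2c and Ces4a held 0.7, 0.9 and 8.1 counts over all libraries.

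**Figure D3:**
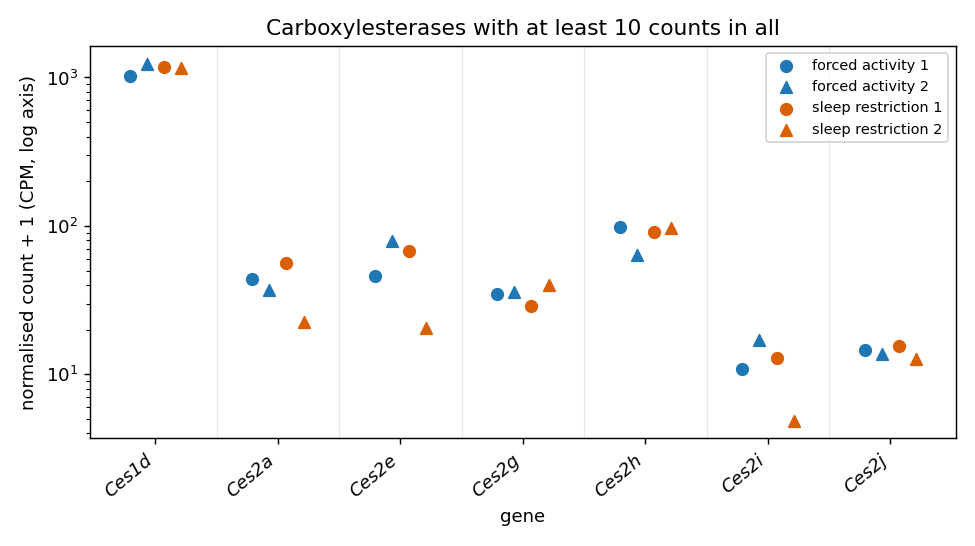
Normalised count + 1 (CPM, log axis) of the 7 carboxylesterases with at least 10 counts over all libraries, in each of the 4 libraries. Sleep restriction 2 is the lowest point for Ces2a, Ces2e, Ces2i and Ces2j, on 11, 10, 2 and 6 counts in that library. Ces1d lies between 1015 and 1236 CPM.

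Flavin monooxygenases had 3 of 8 genes tested. Fmo5, which inserts oxygen beside ketone groups and differs in this from its relatives, had the largest positive change and the smallest unadjusted p of all tested members. It measured 291, 215, 363 and 330.3 CPM. Both sleep restriction libraries lay above both forced activity libraries, at 347 ± 23.4 against 253 ± 53.7 CPM. The log2 change was 0.45 (SE 0.21, 95% interval -0.022 to 0.93), 0.32 between the replicate 1 libraries and 0.61 between the replicate 2 libraries, and it did not pass the test (unadjusted p 0.0596 and adjusted p 0.978 in edgeR). With any 1 library left out the change lay between 0.25 and 0.68. Its positive sign there follows from the groups not overlapping and is no separate result.

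Fmo1, a broad-range amine oxidase, measured 282, 217, 277 and 209.8 CPM, high in both replicate 1 libraries and low in both replicate 2 libraries (log2 change -0.030, SE 0.23, 95% interval -0.53 to 0.47). Both Fmo1 and Fmo5 were lower in forced activity 2 than in forced activity 1. Fmo4 and Fmo2 lay under the filter, with 7, 5.8, 8.2 and 7 counts and with 3.2, 1.4, 4.6 and 1 counts. Fmo9 and Fmo13 were at 0 in all libraries, and Fmo6 had 0.1 counts in all.

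**Figure D4:**
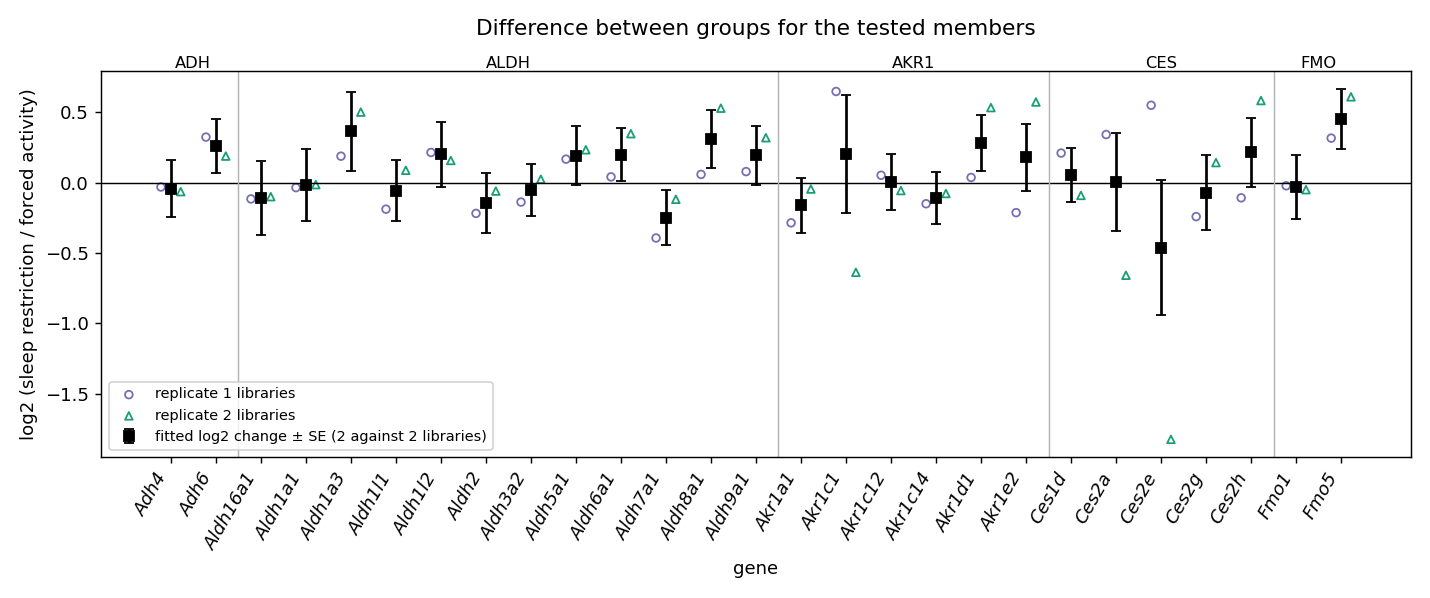
Log2 change of sleep restriction over forced activity for 27 tested members, as the fitted value with its standard error (black squares) and as the difference within the replicate 1 libraries (circles) and within the replicate 2 libraries (triangles). The fitted values lie between -0.46 and 0.45, and the within-pair values spread most for Akr1c1, Ces2a and Ces2e.

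Summed by family, alcohol dehydrogenases took 0.135%, 0.136%, 0.171% and 0.145% of all counts in the 4 libraries. The aldehyde dehydrogenases took 0.466%, 0.437%, 0.451% and 0.469%, and the aldo-keto reductases 0.365%, 0.344%, 0.378% and 0.377%. For carboxylesterases the shares were 0.123%, 0.153%, 0.145% and 0.134%. The groups overlapped for the aldehyde dehydrogenases and carboxylesterases, and not for the alcohol dehydrogenases and aldo-keto reductases. Of single genes tested 32.4% were without overlap, and no such share was taken for sums over several genes. Without Adh6 the alcohol dehydrogenases took 0.0162%, 0.0170%, 0.0164% and 0.0154%, and without Akr1d1 the aldo-keto reductases took 0.208%, 0.212%, 0.211% and 0.194%. Both then overlapped. Median log2 changes of tested members were 0.11, 0.086, 0.092 and 0.0018 in this order of families. They were 0.15, 0.0026, -0.057 and 0.21 between the replicate 1 libraries and 0.062, 0.12, -0.051 and -0.091 between the replicate 2 libraries.

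Other enzymes that handle the same substrates had 0 genes called by edgeR in each list. Of 22 tested alcohol and carbonyl reductases outside these families, 13 were positive and 9 negative (median 0.017), and the smallest p belonged to Srd5a1, a steroid 5-alpha-reductase (52.9, 78.0, 53.0 and 33.0 CPM, log2 change -0.58, SE 0.29), and Rdh7, a retinol dehydrogenase (1078, 1057, 899.5 and 762 CPM, -0.36, SE 0.19). Of 13 tested amine, aldehyde and quinone oxidoreductases and electron donors, 7 were positive (median 0.090). Marc1, a molybdenum enzyme that reduces N-hydroxylated compounds, was lower in both sleep restriction libraries (367, 316, 258 and 251 CPM, -0.42, SE 0.20), and Maoa, a monoamine oxidase, was higher in both (65.2, 45.0, 72.5 and 75.8 CPM, 0.43, SE 0.25). Of 13 tested ester and epoxide hydrolases 6 were positive (median -0.014), with Abhd6, a monoacylglycerol lipase, at -0.39 (SE 0.28) and Pon1, the serum paraoxonase, at -0.18 (SE 0.19). Each of these genes had an edgeR adjusted p of 0.978.

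Acetate follows acetaldehyde in ethanol breakdown. Of 4 tested genes for ethanol and acetate handling 3 were positive (median 0.34). Acss3, a mitochondrial acyl-CoA synthetase for short chains, measured 137, 132, 185 and 264 CPM, higher in both sleep restriction libraries. Its log2 change was 0.73 (SE 0.23, unadjusted p 0.0092 and adjusted p 0.978 in edgeR). Acss2, the cytosolic acetyl-CoA synthetase, had 0.43 (SE 0.25).

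Regulators of detoxification genes had 16 tested entries, 10 of them positive, with a median of 0.16 and 0 called. Hnf4a, a nuclear receptor that maintains hepatocyte genes, measured 420.0, 459, 636 and 789 CPM, higher in both sleep restriction libraries, with a log2 change of 0.69 (SE 0.20), an unadjusted p of 0.00574 and an adjusted p of 0.978 in edgeR. Ahr, the receptor for dioxin-like compounds, measured 52.4, 52.5, 35.0 and 31.1 CPM, lower in both sleep restriction libraries, with -0.61 (SE 0.24, adjusted p 0.978 in edgeR). Neither passed the test.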

How the data were processed

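Liver RNA of 4 libraries was sequenced, 2 per group. Estimated counts by Ensembl identifier, all multiples of 0.1, were deposited as a whole-series table. The submitters' processing notes list CASAVA, STAR 2.4.1d and the build rn6, with no role or order. Which program counted is not stated. The table's name carries the words sense and 10x average, and total counts do not show each library's depth. The 37 mitochondrial rows were all at 0.

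Counts were rounded to whole numbers and tested over all genes with edgeR 4.0.16 in R 4.3.3 (TMM, filterByExpr with a minimum count of 10, robust quasi-likelihood, prior count of 2, Benjamini-Hochberg adjustment). The same script was tested on 10 simulated data sets, with the same spread set for all genes. It called 34.4% of 2-fold changes and 90.5% of 4-fold changes, and on average 1.94% of its calls were false. Most 2-fold changes were thus missed there. The SE is the size of the log2 change over the square root of F, and the 95% interval uses the fit's degrees of freedom. Values between same-numbered libraries are differences of log2 CPM with that prior count. SD is over 2 libraries. The same numbers were not taken as pairs (the correlation of deviations was 0.206 with only 2 pairs). Alternatives were DESeq2 1.42.0, limma-voom (limma 3.58.1), other scaling and filters, a replicate block and leaving out each library.

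Members and lists were chosen with earlier results of these data known. Genes named were, per family, the tested members with the most counts (up to 6) and the smallest p (up to 3), low members with at least 10 counts in all, and the 2 with the smallest p of each further list. Other members are given to account for all, and 1 tested member, though counted, is not reported here. Promoter sequences are RefSeq's (GRCr8), matched by symbol.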

Additional observations from a re-analysis of the deposited data

How the results depend on the processing

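No member was called under any of the 13 alternatives, and the smallest adjusted p of a named member was 0.470. The count of called genes over the table, 1, was 2 with DESeq2, 0 with limma-voom, 0 without a filter, 0 without robust estimation, 0 to 0 with each library left out, 4 with each column divided by its most frequent low value and 11 with a replicate block, of which 0 were members. The older quasi-likelihood and the divided columns were added after seeing the data.

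Several family medians moved. Without a filter they were -0.071 for alcohol dehydrogenases, -0.046 for aldehyde dehydrogenases, -0.015 for aldo-keto reductases and -0.094 for carboxylesterases. With 5 CPM in 2 libraries they were -0.075, -0.067 and -0.063 for alcohol and aldehyde dehydrogenases and carboxylesterases. With the divided columns they were -0.054, -0.058, 0.23 and -0.061 for those 4 families. For carboxylesterases the median was -0.10 with limma-voom and -0.047 with a replicate block. With each library left out, medians ran from -0.012 to 0.066 for alcohol dehydrogenases, -0.021 to 0.21 for aldehyde dehydrogenases, -0.092 to 0.36 for aldo-keto reductases and -0.082 to 0.12 for carboxylesterases.

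Of 286 values of the 22 named members under alternatives, 28 had the opposite sign, in 12 members, 15 of them with 1 library left out. Akr1c12, near 0 throughout, was -0.0052 with RLE size factors, -0.0054 with DESeq2, -0.00058 with limma-voom, -0.025 without a filter, -0.029 with the 5 CPM filter, -0.00021 with a replicate block and -0.015 with the divided columns. Ces2a was -0.0070, -0.0099, -0.15, -0.025, -0.029 and -0.047 under the first 6 of these settings. With 1 library left out the ranges were -0.11 to 0.0051 for Adh4, -0.34 to 0.075 for Aldh2, -0.14 to 0.014 for Aldh3a2, -0.73 to 0.76 for Akr1c1, -0.16 to 0.14 for Akr1c12, -0.036 to 0.42 for Akr1e2, -0.082 to 0.20 for Ces1d, -0.76 to 0.49 for Ces2a, -1.50 to 0.12 for Ces2e, -0.32 to 0.13 for Ces2g, -0.062 to 0.54 for Ces2h and -0.25 to 0.16 for Fmo1. Members that kept their sign ran from 0.13 to 0.37 for Adh6, 0.11 to 0.64 for Aldh1a3, 0.090 to 0.29 for Aldh6a1, -0.40 to -0.13 for Aldh7a1, 0.079 to 0.49 for Aldh8a1, 0.013 to 0.39 for Aldh9a1, -0.23 to -0.10 for Akr1a1, -0.16 to -0.074 for Akr1c14, 0.11 to 0.46 for Akr1d1 and 0.25 to 0.68 for Fmo5. In all of these that kept their sign except Aldh9a1 the groups did not overlap, so the kept sign follows and is no separate result. The cause of the changed values was not tested beyond the change in genes or libraries that each setting makes. A group cut to 1 library takes its spread from the other group. Members with few counts have little precision, and the number of reads behind each column is unknown.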
